A study of Mus musculus with 6 samples.

Results

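The macrophage and myeloid cell genes described here are 10 genes whose products mark or act in tissue macrophages, measured in pancreatic islets of 2 obese mouse strains. They are Cd14, Lyz1, Lyz2, Cd68, Csf1r, C1qa, C1qb, C1qc, Adgre1 (listed under its older name Emr1) and Mrc1. They were chosen by gene name, with no measured value in the rule, from the non-control probes of the scanner files. Earlier results of these data were known when the choice was made. They make up 10 of 27827 gene names and 14 of 41174 probes. Of the 14 probes, 12 were called well above background by the scanner software on 3 or more of the 6 arrays, and through these all 10 genes were tested.

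NZO samples are islets of male NZO/HiBomDife mice, an obese strain that the labels call diabetes-prone. B6-ob/ob samples are islets of male C57BL/6.V-Lepob/ob mice, which carry the ob mutation of the leptin gene and are labelled diabetes-resistant. Both strains were fed fat without carbohydrate until they were 18 weeks old, and islets were prepared 48 h after carbohydrate had been returned to the diet. Strain background and the ob mutation therefore cannot be told apart, and islets from before the switch were not analysed here. Each strain has 3 samples on 1 array each, numbered 10, 11 and 12 in NZO and 4, 5 and 6 in B6-ob/ob. Whether 1 animal or several gave a sample is not stated, and p-values therefore reflect only how these samples vary, which may be technical.

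Macrophages of the islet take up debris, sample the granule content of beta cells and secrete cytokines. Their survival depends on the receptor encoded by Csf1r, and they are a main source of the complement component C1q. CD14 presents bacterial lipopolysaccharide to the receptor TLR4, lysozymes cut bacterial cell walls, CD68 is a glycoprotein of endosomes and lysosomes, Adgre1 encodes the surface antigen F4/80, and Mrc1 encodes the mannose receptor CD206. In bulk islets, fewer cells of a type and less RNA per cell cannot be told apart.

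The scanner software called 23621 to 24711 of the 41174 probes well above background, depending on the array, and precision is limited by having 3 arrays a strain. No spot was saturated and no spot of these 10 genes was flagged. Processed intensities are given as deposited, not scaled between arrays, and levels as their log2 relative to the array's 75th percentile, on which every test rests. Every difference is NZO minus B6-ob/ob, with strains as the scanner files are labelled. Their direction opposes that of the authors' deposited value table, whose columns each track an array labelled as the opposite strain. Which labelling is right was not settled, and if that of the scanner files is wrong, every higher or lower given here turns round. Genes were compared with limma, and p-values were adjusted over 16418 genes by the Benjamini-Hochberg method; at 0.05 this called 22.2% of all genes. The tissue label was borne out by the beta cell markers, whose summed level was 2701 to 3053 times the 75th percentile in NZO and 2600 to 3178 times in B6-ob/ob. Acinar cell markers, however, summed to 2552 to 3813 times in NZO and 355 to 1130 times in B6-ob/ob. The acinar sums thus did not overlap between the strains. They run over 23 acinar genes, against 11 beta cell genes, and probes differ in how they bind. The size of acinar signal relative to beta cell signal therefore cannot be read from them.

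Each probe is a 60-base oligonucleotide, and the differences rest on what these sequences capture. Whether the strains differ in sequence under any probe was not checked. The probes shown here are those with a reading frame open across the whole probe for the members whose sequence may be printed, written 5′ to 3′ in transcript orientation. The first 2 belong to C1q chains, of which C1qa was called and C1qb was not, the next is the second probe of Lyz2, and the last 2 belong to Cd68 and Adgre1. The C1qa probe lies at chr4:136452409-136452468, the C1qb probe at chr4:136436578-136436637, the Lyz2 probe at chr10:116719175-116719234 and the Cd68 probe at chr11:69478314-69478373, all on the minus strand of mm9, and the Adgre1 probe at chr17:57550221-57550280 on the plus strand.
C1qa: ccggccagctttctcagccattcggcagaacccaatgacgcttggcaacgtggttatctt
C1qb: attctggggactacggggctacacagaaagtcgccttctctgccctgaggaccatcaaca
Lyz2 (second probe): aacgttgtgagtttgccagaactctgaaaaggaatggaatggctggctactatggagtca
Cd68: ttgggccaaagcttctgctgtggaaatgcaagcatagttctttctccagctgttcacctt
Adgre1 (second probe): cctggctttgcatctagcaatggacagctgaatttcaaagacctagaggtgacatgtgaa

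Lyz1 and Lyz2 are neighbouring copies on chromosome 10. The probes of both were higher in NZO in the results that follow, so their promoters are shown. The Lyz1 probe may also read Lyz2. The 250 bases before each transcript start, from RefSeq on GRCm38.p6, are on the minus strand at chr10:117292869-117293118 for Lyz1 and chr10:117282273-117282522 for Lyz2. Aligned over their length, 205 of 260 positions were identical (78.8%, gaps counted as differences). Capitals mark the longest stretch that both share, 50 bases that end at the transcript start.
Lyz1 promoter: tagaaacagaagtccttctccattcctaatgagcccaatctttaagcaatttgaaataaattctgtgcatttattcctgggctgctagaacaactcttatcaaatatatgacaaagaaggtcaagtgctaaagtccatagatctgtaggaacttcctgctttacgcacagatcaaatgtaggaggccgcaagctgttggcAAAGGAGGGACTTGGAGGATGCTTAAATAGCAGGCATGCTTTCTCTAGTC
Lyz2 promoter: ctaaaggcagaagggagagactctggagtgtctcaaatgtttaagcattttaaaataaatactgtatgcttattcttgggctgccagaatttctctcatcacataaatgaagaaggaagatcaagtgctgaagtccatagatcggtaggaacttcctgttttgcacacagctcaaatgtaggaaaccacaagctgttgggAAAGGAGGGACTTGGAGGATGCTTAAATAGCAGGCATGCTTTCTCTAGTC

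Of the 10 genes, 5 were higher in NZO islets, namely Cd14, Lyz1, Lyz2, C1qa and Cd68, and 0 were lower, also at an unadjusted p under 0.05. The files list the Lyz1 probe for transcripts of Lyz2 as well, so Lyz1 may not be a separate call. Across all genes tested, 13.2% were called higher and 9.0% lower. Csf1r, C1qb, C1qc, Adgre1 and Mrc1 did not pass the test, although all 10 differences had a positive sign. The median difference of the 10 genes was 1.06 on the log2 scale, beside -0.030 over all genes. In the 5 called genes every NZO array lay above every B6-ob/ob array, an order seen at 20.7% of all genes, and in the other 5 the strains overlapped. None of the 10 lay wholly below in NZO, as 20.4% of all genes did. With slide as a block, 5 of the 10 were called higher, beside 9.23% of all genes. Leaving out NZO 10, NZO 11 or B6-ob/ob 5 brought the count of genes called higher to 3.

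**Figure D1:**
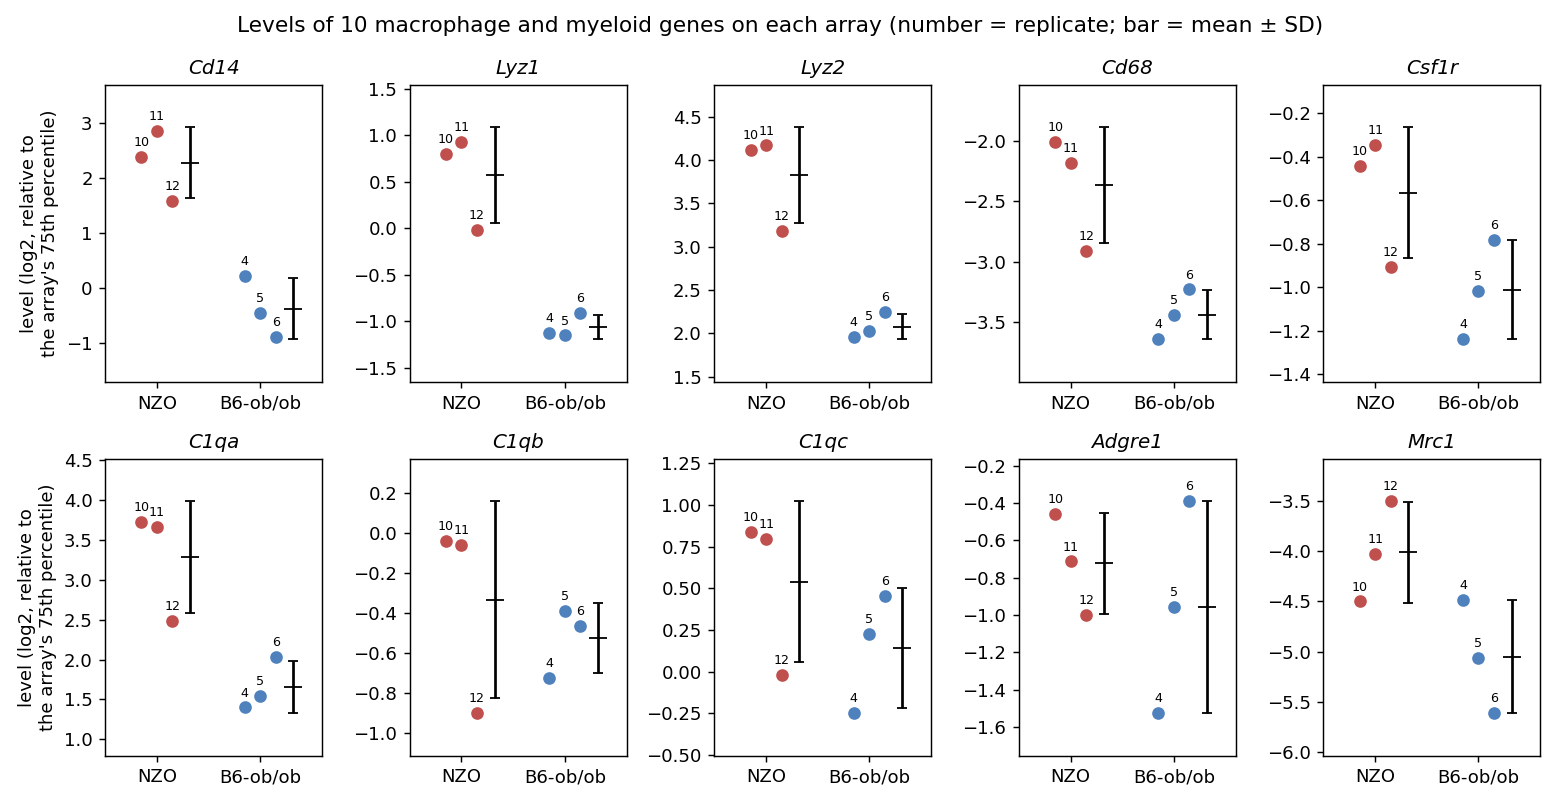
Level of each gene on each array, as log2 relative to the array's 75th percentile (vertical axis, with its own range in each panel), for NZO and B6-ob/ob islets. Points are arrays with their replicate numbers, and bars are mean ± SD over 3 arrays. Cd14, Lyz1, Lyz2, Cd68 and C1qa show no overlap between the strains, while Csf1r, C1qb, C1qc, Adgre1 and Mrc1 do.

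Cd14, the co-receptor for lipopolysaccharide, had the largest difference of the 10 genes. Its processed intensity was 2256, 2478 and 1230 on NZO arrays, against 431, 330 and 238 on B6-ob/ob arrays. The lowest NZO array was thus well above the highest B6-ob/ob array. On the log2 scale its level averaged 2.27 ± 0.64 in NZO and -0.37 ± 0.56 in B6-ob/ob (SD, n = 3 arrays each). The difference was 2.65 ± 0.41 (SE; limma adjusted p = 0.0064), a 6.26-fold higher level with a 95% interval of 3.17 to 12.4. It was called under all 17 alternative fits. Within the slides that hold both strains, the difference was 2.16 on slide 2 and 3.53 on slide 3. The probe lies at chr18:36884969-36885028 on the minus strand of mm9.

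Of 19 tested genes that act with CD14 in lipopolysaccharide recognition, 5 were higher and 1 was lower, beside 13.2% and 9.0% of all genes. The other 13 did not pass, and the median difference of the list was 0.16. Lbp, whose secreted product transfers lipopolysaccharide to CD14, was higher by 3.37 (limma adjusted p = 0.0072). Its levels were 0.52, 0.46 and 0.33 on NZO arrays, against -1.79, -2.96 and -4.05 on B6-ob/ob arrays. Tlr4, the signalling receptor, was higher by 1.76 (adjusted p = 0.0055) and in B6-ob/ob it cleared background on 1 of 3 arrays. The adaptor genes Tirap (0.64) and Myd88 (0.59) and the kinase gene Irak2 (0.42) were also called, whereas the kinase gene Map3k7 was lower at -0.48; with slide as a block these 4 calls were lost. The list's lower calls numbered 1 without B6-ob/ob 4 and 0 when any of the other 5 arrays was left out. Ly96, which encodes the TLR4 partner MD-2, differed by -0.59 and did not pass the test (adjusted p = 0.051), and neither did Tlr2 at 0.54 (adjusted p = 0.237). The count of called higher genes was 2 with slide as a block, 2 without B6-ob/ob replicate 5, 2 without NZO replicate 11, 3 without NZO replicate 10 and 8 without B6-ob/ob replicate 4. With that block, 9.23% of all genes were higher.

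The probes of both lysozyme genes were higher in NZO, but the Lyz1 probe is uncertain between the copies, as given below. Lyz2, the lysozyme of mouse macrophages, had an intensity of 7500, 6157 and 3722 on NZO arrays, against 1434, 1850 and 2083 on B6-ob/ob arrays at its brightest probe. No B6-ob/ob array reached the lowest NZO array. The difference was 1.74 ± 0.28 (SE; limma adjusted p = 0.0077), or 3.35-fold with a 95% interval of 2.09 to 5.39. The second Lyz2 probe, printed above, was much dimmer, at 95, 50.8 and 33.7 on NZO arrays and 11.9, 21.5 and 19.6 on B6-ob/ob arrays. Its difference was 1.76 ± 0.37 (SE; adjusted p = 0.019 over all probes, of which 11.5% were called higher and 10.3% lower), so both probes of the gene passed the test.

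Lyz1, which in mouse is best known from Paneth cells of the gut, had an intensity of 752, 653 and 404 on NZO arrays, against 169, 204 and 234 on B6-ob/ob arrays. Again the strains did not overlap, and the difference was 1.63 ± 0.26 (SE; limma adjusted p = 0.0077), or 3.10-fold. The files list RefSeq transcripts of both Lyz1 and Lyz2 for this probe, so its signal is uncertain between the copies. The log2 ratio of the Lyz2 probe to the Lyz1 probe was 3.32, 3.24 and 3.20 on NZO arrays and 3.09, 3.18 and 3.16 on B6-ob/ob arrays, a difference of 0.11. Both genes were called under all 17 alternative fits. Of 6 Paneth cell markers on the array, 4 were above background on no array. Of the 2 that were tested, Mmp7 was higher by 3.85 (limma adjusted p = 0.0057) and in B6-ob/ob it cleared background on 1 of 3 arrays. The other, Ang4, went the opposite way, lower in NZO at a limma unadjusted p under 0.05, and was not called. The part of such cells in the lysozyme signals was not tested.

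Of the 3 C1q chain genes, C1qa was higher in NZO, while C1qb and C1qc did not pass the test. C1qa, C1qb and C1qc lie side by side on chromosome 4, and their chains assemble into the recognition subunit of the classical complement pathway. C1qa had an intensity of 5731, 4332 and 2292 on NZO arrays, against 973, 1321 and 1798 on B6-ob/ob arrays. The strains did not overlap, although NZO replicate 12 and B6-ob/ob replicate 6 came close. The difference was 1.63 ± 0.37 (SE; limma adjusted p = 0.0254), or 3.10-fold with a 95% interval of 1.66 to 5.78. Without NZO replicate 10 the difference was 1.41, without NZO replicate 11 it was 1.45, without B6-ob/ob replicate 4 it was 1.5 and without B6-ob/ob replicate 5 it was 1.58, and the call was lost each time.

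C1qb had an intensity of 421, 329 and 219 on NZO arrays, against 223, 346 and 319 on B6-ob/ob arrays. The groups overlapped, and the difference of 0.19 had a 95% interval of -0.44 to 0.83 (limma adjusted p = 0.65). C1qc had 774, 595 and 404 on NZO arrays and 310, 531 and 603 on B6-ob/ob arrays. Here too the groups overlapped, with a difference of 0.39 and a 95% interval of -0.32 to 1.11 (limma adjusted p = 0.401). The C1qc probe lies at chr4:136445766-136445825 on the minus strand of mm9, between those of C1qa and C1qb.

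The ratio of C1qa to the mean of C1qb and C1qc within each array set the chains against each other directly. Its log2 value was 3.33, 3.29 and 2.94 on NZO arrays and 1.89, 1.62 and 2.04 on B6-ob/ob arrays, a difference of 1.34, or 2.53-fold. All NZO arrays lay above all B6-ob/ob arrays, by several times the SD of 0.21 within each strain. The ratio of C1qb to C1qc was -0.88, -0.85 and -0.88 on NZO arrays and -0.47, -0.62 and -0.92 on B6-ob/ob arrays, which overlap. In a two-sided exact permutation test the C1qa ratio gave p = 0.1, the smallest that 3 against 3 arrays allow, and 0.129 after adjustment over the 9 ratios computed. These ratios were chosen after the values had been seen, and because probes differ in how they bind, the size of a ratio cannot be read. Its change between strains is a change of probe signals. Whether the strains differ in sequence under these probes was not checked.

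**Figure D2:**
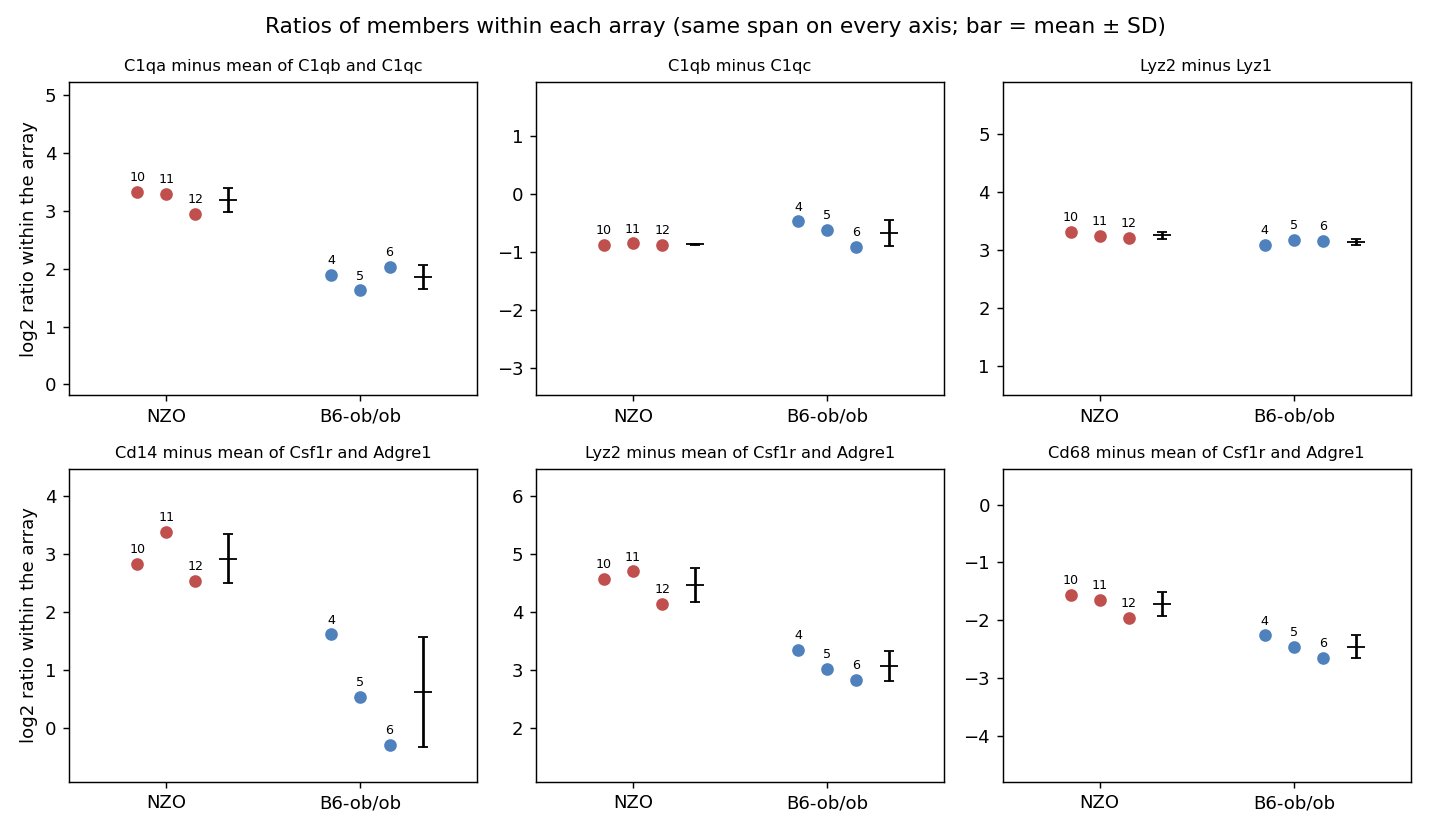
Log2 ratio of members within each array (vertical axis, the same span in every panel) for NZO and B6-ob/ob islets, with replicate numbers beside the points and bars for mean ± SD over 3 arrays. The ratio of C1qa to the other C1q chains averaged 3.19 in NZO and 1.85 in B6-ob/ob, while those of C1qb to C1qc and Lyz2 to Lyz1 differed by -0.20 and 0.11.

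Several genes of the proteases, substrates and regulators that act with C1q were higher in NZO. Of 17 tested genes, 9 were higher in NZO and 0 lower, with a median difference of 1.45, beside 13.2% and 9.0% of all genes. C4b and C2, which encode the substrates that the C1 complex cleaves, were higher by 3.77 and 3.16 (limma adjusted p = 0.00095 for each). C4b had levels of 1.98, 2.28 and 1.53 on NZO arrays, against -1.18, -2.03 and -2.30 on B6-ob/ob arrays. The C1 protease genes C1ra (2.23), C1rb (2.12) and C1s1 (2.13) were higher, as were the genes of the inhibitors Cfi (1.45) and Cd59a (1.99) and of the scavenger receptor Lrp1 (1.38). C3, at 1.34, did not pass (adjusted p = 0.0753), and Calr, whose product binds C1q, differed by -0.59 (adjusted p = 0.115). The count of higher genes was 13 without B6-ob/ob replicate 4 and 8 or 9 without any other array. Fibroblasts and hepatocytes also make C1r, C1s and C4, and the fibroblast markers given further on were higher in NZO as well, a part that was not tested.

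Cd68 was higher by a smaller step. Its intensity was 108, 75.5 and 54.5 on NZO arrays, against 29.5, 41.7 and 46.9 on B6-ob/ob arrays. The lowest NZO array and the highest B6-ob/ob array were close but did not overlap. The difference was 1.07 ± 0.26 (SE; limma adjusted p = 0.0314), or 2.10-fold with a 95% interval of 1.36 to 3.25. It was called in 11 of 17 alternative fits. The call was lost when NZO 10 (0.89), NZO 11 (0.98), B6-ob/ob 4 (0.97) or B6-ob/ob 5 (1.07) was left out, and under quantile normalisation, where the difference was 0.47. Of 28 tested lysosome and phagosome genes, 7 were higher and 0 lower, with a median of 0.09, beside 13.2% and 9.0% of all genes. The cathepsin genes Ctsk (2.30, clear of background in B6-ob/ob on 2 of 3 arrays), Ctsc (2.26) and Ctsh (1.69) and the progranulin gene Grn (1.31) were among the 7, whereas Ctss, the cathepsin of antigen-presenting cells, differed by 0.03 (adjusted p = 0.966) and Lamp1 by -0.22 (adjusted p = 0.201). The count was 3 when NZO 10, NZO 11 or B6-ob/ob 5 was left out.

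Csf1r and Adgre1, the receptor gene on which most tissue macrophages depend and the F4/80 gene, did not pass the test. Csf1r had an intensity of 319, 270 and 219 on NZO arrays, against 156, 224 and 256 on B6-ob/ob arrays at its brightest probe (chr18:61290384-61290443, plus strand, mm9). The difference was 0.45, with a 95% interval of -0.04 to 0.93 (limma adjusted p = 0.169). Its second probe gave 0.18, with an interval of -0.31 to 0.67, and the remaining one was well above background on no array. Adgre1 had 315, 209 and 205 on NZO arrays and 128, 233 and 336 on B6-ob/ob arrays, so that B6-ob/ob held both the lowest and the highest value. Its difference was 0.23, with a 95% interval of -0.51 to 0.98 (adjusted p = 0.643), and without B6-ob/ob replicate 4 it was -0.050. The Adgre1 probe printed above was well above background on NZO replicate 11 alone, at 22.4.

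Mrc1 was dim, with an intensity of 19.1, 20.9 and 36.1 on NZO arrays, against 16.4, 13.5 and 9.03 on B6-ob/ob arrays. On B6-ob/ob replicate 6 it was not well above background. The strains overlapped narrowly, with levels of -4.50 on NZO replicate 10 and -4.49 on B6-ob/ob replicate 4. The difference was 1.04, with a 95% interval of 0.17 to 1.91 (limma adjusted p = 0.0917). It was -0.016 within slide 2 and 1.30 within slide 3, and without B6-ob/ob replicate 4 it was 1.32 and passed the test (adjusted p = 0.045). The probe lies at chr2:14253304-14253364 on the plus strand of mm9.

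**Figure D3:**
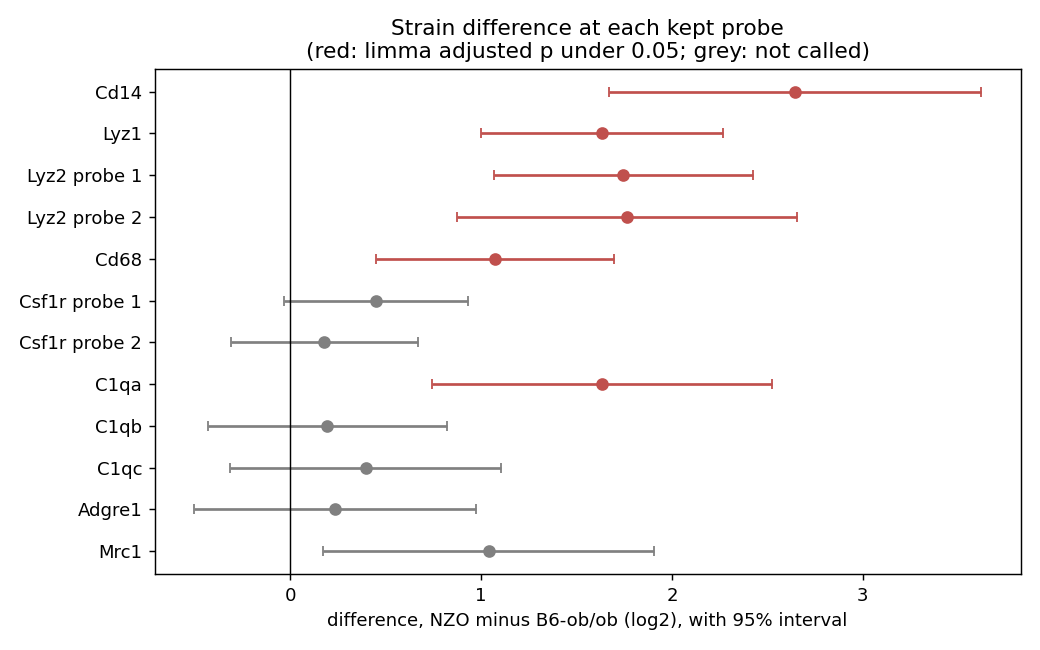
Difference between NZO and B6-ob/ob islets at each of the 12 probes that passed the filter, on the log2 scale (horizontal axis), with 95% intervals; red marks probes with an adjusted p under 0.05. Cd14 stands highest at 2.65, both Lyz2 probes lie near 1.75, and the intervals of C1qb, C1qc, Adgre1 and both Csf1r probes include 0.

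The ratios of called genes to Csf1r and Adgre1 within each array are given as a description, because genes were chosen as numerator or denominator for having passed or not passed the test. The log2 ratio of Cd14 to the mean of Csf1r and Adgre1 was 2.83, 3.38 and 2.54 on NZO arrays, against 1.61, 0.53 and -0.30 on B6-ob/ob arrays. The same ratio differed by 1.40 for Lyz2, 1.29 for C1qa and 0.73 for Cd68.

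Among the genes that make and maintain macrophages, the genes of the 2 ligands of the CSF1 receptor were measured, and Il34 passed the test. It was higher by 2.00 (limma adjusted p = 0.00061), with levels of 1.21, 1.20 and 0.98 on NZO arrays, against -0.69, -0.80 and -1.11 on B6-ob/ob arrays. Csf1 differed by -0.60 and did not pass (adjusted p = 0.241), with levels of -0.66, -0.26 and -0.88 on NZO arrays and 0.60, -0.53 and -0.08 on B6-ob/ob arrays. Of 18 tested genes for growth factors, their receptors and transcription factors of the lineage, 7 were higher and 0 lower. Their median was 0.51, and of all genes 13.2% were higher and 9.0% lower. Csf2rb, the shared beta chain of cytokine receptors, was higher by 2.42 and Zeb2 by 2.17. Irf8, a transcription factor of monocytes and macrophages, was higher by 0.92 (adjusted p = 0.0146). The count was 4 when NZO 11 or B6-ob/ob 5 was left out.

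Samples within a strain differed along the same lines at most of the 10 genes. NZO replicate 12 had the lowest level of its strain at 9 of 10 genes, the exception being Mrc1, where it had the highest. It was also lowest at 41 of 55 other macrophage and myeloid genes (74.5%), beside 43.0% of all genes. In B6-ob/ob, replicate 4 was lowest and replicate 6 highest at 7 of 10 genes each, beside 37.0% and 36.7% of all genes. Cd14 and Mrc1 ran the other way there, highest on replicate 4 and lowest on replicate 6.

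Acinar and fibroblast markers had the B6-ob/ob order of Cd14 and Mrc1. Ductal and endothelial means had it too, while the beta cell mean ran the other way. Among all genes, B6-ob/ob replicate 4 was highest at 45.1% and replicate 6 lowest at 42.8%. The mean level of 23 acinar markers was 5.30, 5.53 and 5.96 on NZO arrays, against 4.05, 3.30 and 2.51 on B6-ob/ob arrays, in replicate order. That of 16 fibroblast, stellate cell and pericyte markers was 1.5, 1.39 and 1.6 on NZO arrays, against -0.27, -1.06 and -1.51 on B6-ob/ob arrays. In NZO, the acinar mean was highest on replicate 12, where Mrc1 was highest and the other 9 genes were lowest. The part of these cells in the differences was not tested.

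**Figure D4:**
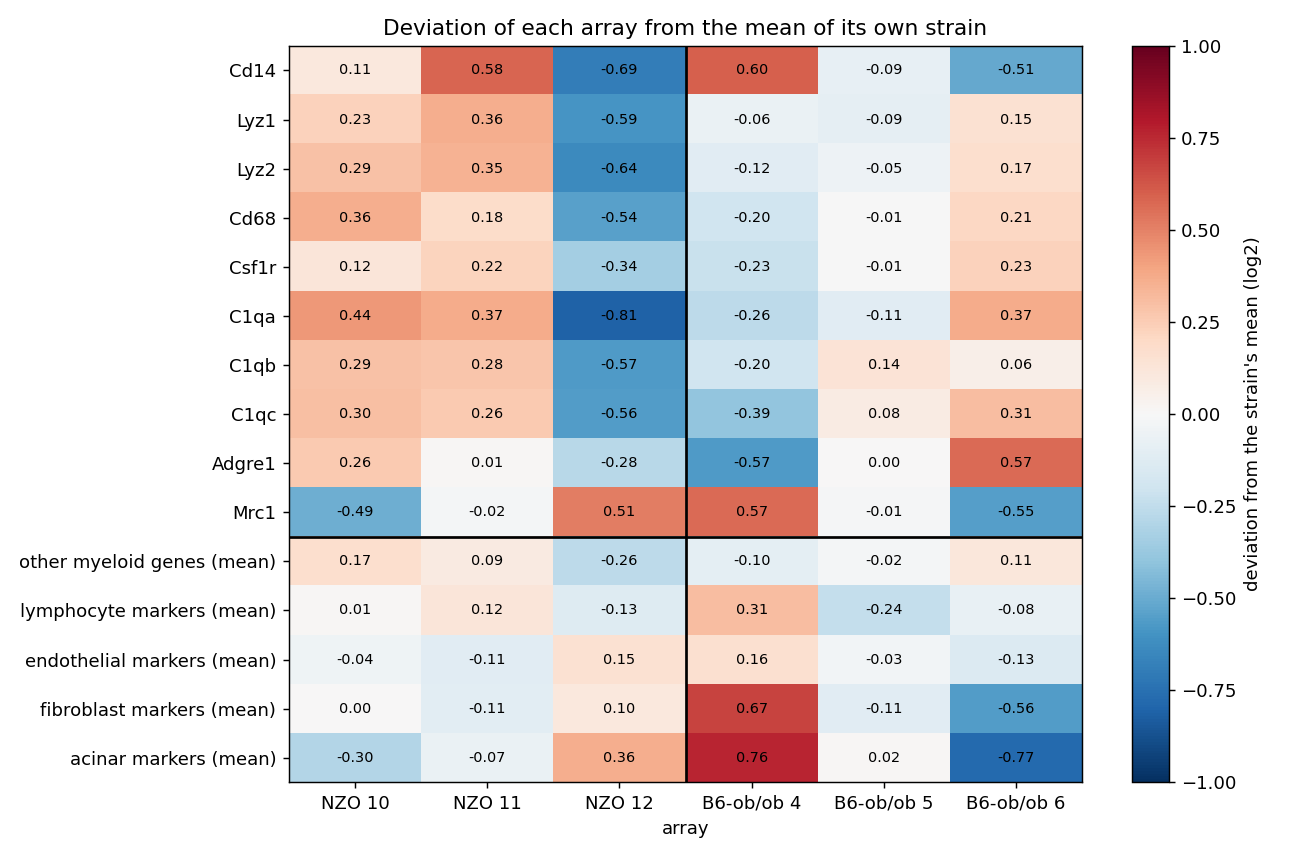
Deviation of each array (columns) from the mean of its own strain on the log2 scale, for the 10 genes and for the mean of 5 marker lists (rows), with values in the cells. NZO replicate 12 is low at every gene but Mrc1. On B6-ob/ob replicate 4 Cd14 and Mrc1 are high, as are the acinar, fibroblast, lymphocyte and endothelial means.

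Of 66 other macrophage and myeloid genes on the array, 55 were tested. Of these, 20 were higher in NZO (36.4%) and 1 was lower, with a median difference of 0.63, beside 13.2% and 9.0% of all genes. Of the 47 that were well above background on all 6 arrays, 17 were higher. The summed level of all 55 tested genes was 52.9 to 66.4 times the 75th percentile in NZO and 37.7 to 49.1 times in B6-ob/ob. The count of higher genes was 8 without NZO replicate 10, 8 without NZO replicate 11 and 7 without B6-ob/ob replicate 5.

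The largest of these differences were at lectin and scavenger receptor genes not well above background on most or all B6-ob/ob arrays. Among others of this kind Stab1 (0.85) passed, while Clec4e (1.76, limma adjusted p = 0.088), Clec7a (1.13, adjusted p = 0.145) and Cd36 (0.05) did not. Clec10a, a galactose-binding lectin, had levels of -2.71, -2.63 and -1.54 on NZO arrays, against -3.81, -5.95 and -7.54 on B6-ob/ob arrays, of which 1 was well above background. Its difference was 3.47 (limma adjusted p = 0.0425), and with slide as a block it did not pass (adjusted p = 0.117). Cd163, the haemoglobin scavenger receptor, was at least 2.85-fold higher (adjusted p = 0.0107) and Clec4d at least 3.31-fold higher (adjusted p = 0.033), both not well above background on any B6-ob/ob array. They passed the filter through NZO alone, and their p-values rest on B6-ob/ob readings below background. For such genes the bound sets the mean of the NZO arrays against the dimmest signal still well above background on the B6-ob/ob arrays, or the probe's own level where that was higher. Trem2, a lipid receptor of macrophages (1.85), Axl, a receptor for dying cells (1.5), and Cyba, a subunit of the phagocyte oxidase (1.62), were higher as well.

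Genes that myeloid cells or leukocytes use broadly were divided, and several did not pass. Ptprc, the pan-leukocyte antigen CD45, differed by 0.63 (limma adjusted p = 0.0764), Tyrobp by 0.37, Mpeg1 by 0.36, Laptm5 by 0.14 and Cybb by -0.06. Fcgr3 (1.13), Aif1 (1.27), Coro1a (0.81), Plek (0.79), Fcer1g (0.77) and Itgb2 (0.70) did pass. With slide as a block Coro1a did not (limma adjusted p = 0.0505). Folr2, a folate receptor of resident macrophages, was the 1 lower gene, at -1.23 (adjusted p = 0.0179). With slide as a block it did not pass (adjusted p = 0.0538), nor did any gene of the list lie lower past the test when NZO 10, NZO 11 or B6-ob/ob 5 was left out. Its levels were -4.43, -4.28 and -3.96 on NZO arrays, against -2.69, -2.78 and -3.50 on B6-ob/ob arrays. Itgam, Adgre4, Cd209a, Fgr, Marco, Slamf7, Timd4 and Vsig4 were well above background on no array.

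**Figure D5:**
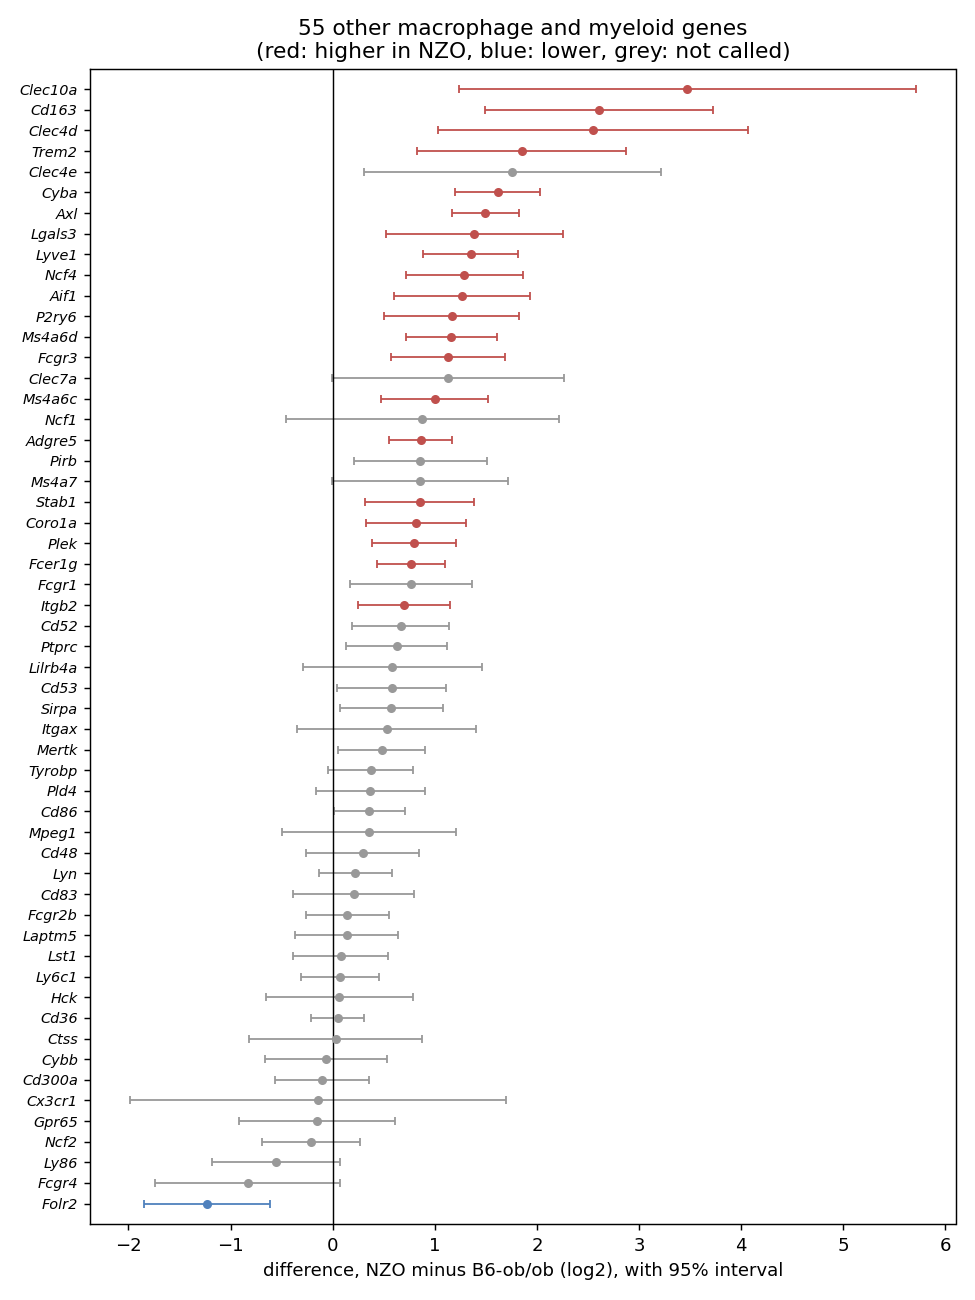
Difference between NZO and B6-ob/ob islets for the 55 other macrophage and myeloid genes that were tested, on the log2 scale (horizontal axis), with 95% intervals. Red points are the 20 genes called higher and the blue point is Folr2, the 1 called lower; Clec10a, Cd163 and Clec4d lie highest, and the fitted values of Cd163 and Clec4d are not bounds.

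Gene lists often used to sort macrophage states gave calls in both directions. Of 18 tested genes of inflammatory activation, 4 were higher and 2 lower, with a median of 1.13, beside 13.2% and 9.0% of all genes. Il6 was higher by 4.07 (limma adjusted p = 0.0143), Acod1, which makes itaconate, by 2.72 (adjusted p = 0.0489), Ptgs2 by at least 2.28-fold and Irf1 by 0.84, which did not pass with slide as a block (adjusted p = 0.0803). With that block 7 genes of the list were higher and 2 lower. Ptgs2 was well above background on no B6-ob/ob array and passed the filter through NZO alone. Of 13 genes of the list well above background on all 6 arrays, 3 were higher. Pycard, an inflammasome adaptor, was lower at -1.22 and Slc7a2 at -1.51. Tnf (1.11) and Il1b (1.17) did not pass, and Nos2 was well above background on no array. The count of higher genes was 1 without NZO replicate 10, 1 without NZO replicate 11, 2 without B6-ob/ob replicate 5 and 8 without NZO replicate 12.

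Of 14 tested genes of alternative activation, 7 were higher and 3 lower, with a median of 0.88, beside 13.2% and 9.0% of all genes. Besides Clec10a and Cd163, Il10 was at least 4.51-fold higher, F13a1, a coagulation factor subunit, was higher by 2.79 and Igf1 by 2.29. Il10 and Cd163 were well above background on no B6-ob/ob array and passed the filter through NZO alone. Of 9 genes of the list well above background on all 6 arrays, 4 were higher. Arg1, encoding arginase, was lower at -1.38 (limma adjusted p = 0.0091), with levels of -1.98, -1.47 and -1.56 on NZO arrays, against -0.72, -0.12 and -0.04 on B6-ob/ob arrays. Chil3, a chitinase-like gene of macrophages, was at least 1.85-fold lower, and was well above background on no NZO array. When NZO 10, NZO 11 or B6-ob/ob 5 was left out, the count of higher genes was 3, and with slide as a block 4 were higher and 2 lower. Many genes on both lists are also used by other cells.

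Chemokines and adhesion genes that draw or hold monocytes were higher in 8 of 20 tested cases and lower in 0. Their median was 0.67, and of all genes 13.2% were higher and 9.0% lower. Ackr1 was higher by 3.37 and the adhesion gene Vcam1 by 3.15, and the block on slide ended both calls (adjusted p of 0.0784 for Ackr1 and 0.098 for Vcam1). The monocyte chemokine gene Ccl8 was called higher, with a fitted difference of 3.25, but in B6-ob/ob it cleared background on 1 of 3 arrays. Ccl2, the main chemokine for classical monocytes, differed by 3.47 but did not pass (limma adjusted p = 0.083). Its levels were 2.48, 3.14 and 0.54 on NZO arrays, against 0.90, -1.96 and -3.19 on B6-ob/ob arrays, so that 1 B6-ob/ob array lay above 1 NZO array. The count of higher genes was 3 with slide as a block, 1 without B6-ob/ob replicate 5, 2 without NZO replicate 10, 2 without NZO replicate 11 and 3 without NZO replicate 12. Of 16 tested paralogs of the 10 genes, 8 were higher and 0 lower. They include Pdgfrb (1.26), a relative of Csf1r that fibroblasts and pericytes express, Mrc2, a relative of Mrc1 that cleared background in B6-ob/ob on 1 of 3 arrays (fitted difference 2.5), and Pdgfra, at least 5.48-fold higher. Pdgfra was well above background on no B6-ob/ob array and passed the filter through NZO alone.

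Markers of other cells that islet samples can hold also differed. Over all genes, 13.2% were called higher and 9.0% lower, and with slide as a block 9.23% were higher. Of 23 acinar markers 21 were higher, with a summed level of 2552 to 3813 in NZO and 355 to 1130 in B6-ob/ob, and of 16 fibroblast, stellate cell and pericyte markers 15 were higher, with 81 to 90.7 in NZO and 20.5 to 34.5 in B6-ob/ob. The acinar count was 11 with slide as a block and 11 without B6-ob/ob 5. The fibroblast, stellate cell and pericyte count was 12 with the block and 12 without B6-ob/ob 5. Of the 13 markers of that list well above background on all 6 arrays, 12 were higher, and its marker Pdgfra passed the filter through NZO alone. Of 13 ductal markers 6 were higher and 1 was lower, and of the 10 that were well above background on all 6 arrays 3 were higher. Of 18 endothelial markers 5 were higher (3 with slide as a block, 3 without B6-ob/ob 5). Of 11 beta cell markers 0 were higher and 1 was lower (0 lower with the block, 1 higher without B6-ob/ob 6). The summed level of the 10 genes was 21.5 to 44.2 in NZO and 10.5 to 13.5 in B6-ob/ob. Among blood cells, 8 of 19 lymphocyte markers were tested, and 4 of these were well above background on no B6-ob/ob array, so that they passed the filter through NZO alone. The 3 that were well above background on all 6 arrays were higher, including Ltb at 4.80, and 7 of the 19 were above background on no array. The count of called lymphocyte markers was 8, beside 5 without NZO 11. Of 9 tested dendritic cell markers 3 were higher and 0 lower, but 1 was higher with slide as a block and when NZO 10, NZO 11, NZO 12 or B6-ob/ob 5 was left out. Of 6 tested mast cell and basophil markers 2 were higher, both above background on no B6-ob/ob array, and 1 was lower. Of 15 neutrophil markers 11 were above background on no array, and neither of the 2 tested passed, though 2 markers did without B6-ob/ob 4. Of 3 tested adipocyte markers 1 was higher, and 0 when NZO 10, NZO 11 or B6-ob/ob 5 was left out. Of 6 erythrocyte markers 0 were called, and 1 without B6-ob/ob 4. Where limma gave 0 calls in a direction here, unadjusted p under 0.05 gave 0 as well, except for 2 lysosome genes, 1 growth and transcription factor gene (Nr1h3), Calr and the Paneth cell marker Ang4, which lay lower, and 2 erythrocyte markers and 1 neutrophil marker, which lay higher. How far any of these cells add to the values of the 10 genes was not tested.

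The genes with the profile most like Cd14 and most like the C1q chains were named by their distance over the arrays. Among 12632 genes well above background on all 6 arrays, Clcf1, Col18a1 and Nrip3 lay nearest to the profile of Cd14, each profile centred on its mean, at a root mean square distance of 0.161, 0.210 and 0.213 on the log2 scale. Col18a1, a basement membrane collagen gene, had levels of 2.71, 2.82 and 2.23 on NZO arrays, against 0.68, -0.24 and -0.64 on B6-ob/ob arrays. Nearest to the mean of C1qa, C1qb and C1qc were Ms4a7, a macrophage surface gene, Itgax, the CD11c gene, and Lat2, at 0.116, 0.139 and 0.151. Ms4a7 had levels of -0.10, -0.20 and -1.18 on NZO arrays, against -1.82, -1.27 and -0.96 on B6-ob/ob arrays. These distances describe 6 arrays and carry no test.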

How the data were processed

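Islet RNA of 3 NZO and 3 B6-ob/ob samples was measured on 1-colour Agilent arrays of design 014868, from 1 µg RNA each per the labels. The deposited scanner files hold linear spot intensities per the file headers, which Agilent Feature Extraction, version 10.5.1.1 in the file headers, had background-subtracted and detrended; the submitters' processing notes name version 9.1. The authors' value table, of 33150 linear intensities per column with medians of 21.3, 21.4 and 21.4 (labelled NZO 10, 11, 12) and 22.1, 21.4 and 22.4 (labelled B6-ob/ob 4, 5, 6), was deposited without a stated normalisation. It was used as an alternative with its sign turned, since over 33074 matched probes its columns track arrays labelled as the opposite strain; which of the 2 labellings is right was not settled.

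Log2 intensity was lowered by each array's 75th percentile. Probes that cleared background on 3 or more of 6 arrays were kept (24628), and each gene was given by its brightest kept probe. The strain contrast was fitted in limma 3.58.1 (lmFit, eBayes; R 4.3.3) and tested two-sided, and p-values were adjusted over 16418 genes by the Benjamini-Hochberg method; probes were fitted likewise over 24628 probes. The fit was tested on simulated data. Summed levels are sums of linear levels. Names were updated through RefSeq (25097 probes by accession, 7973 by symbol or synonym, 8104 unchanged).

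Slides were told apart by the first part of each array's barcode. Slide 1 held NZO 12, slide 2 NZO 10 and B6-ob/ob 4, and slide 3 NZO 11 with B6-ob/ob 5 and 6. The alternatives covered background correction, scaling, the value table, the filter, the gene summary, weights for arrays, the slide, the prior variance and leaving out each array. The members and lists were chosen with earlier results of these data known. The rule names every member, up to 3 called genes of each list in each direction by size, and the 3 genes nearest to Cd14 and to the C1q mean; other genes were named after their values were seen, and a gene that the rule names is not reported here.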

Additional observations from a re-analysis of the deposited data

How the results depend on the processing

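Cd14, Lyz1 and Lyz2 were called higher under all 17 alternative fits, with lowest and highest differences without 1 array of 2.36 and 2.99, 1.45 and 1.93, and 1.57 and 2.06. Of 10 members, between 3 and 5 were called higher without 1 array. Among all genes 3643 were called, beside 2329 with slide as a fixed block, 6923 with array weights, and 1933 to 3574 without 1 array. Of the other macrophage and myeloid genes 34 were called higher with array weights and 7 to 23 without 1 array. Their lower calls numbered 0 with normexp and 75th percentile scaling, 2 with no filter on dim probes, 0 with slide as a fixed block, 2 with array weights and 0 to 1 without 1 array. Cd68 lost its call under normexp with quantile normalisation (0.47, limma adjusted p = 0.056) and with no filter (1.07, adjusted p = 0.0572), the second with more genes tested. Without 1 array the differences were 0.89 to 1.34 for Cd68, 1.41 to 2.04 for C1qa, 0.34 to 0.62 for Csf1r, 0.048 to 0.48 for C1qb, 0.20 to 0.67 for C1qc, -0.050 to 0.52 for Adgre1 and 0.76 to 1.32 for Mrc1. Array weights brought Csf1r (0.54, adjusted p = 0.0191) and Mrc1 (0.93, adjusted p = 0.0212) past the threshold; the cause of these changes was not tested. Within slide 2, which pairs 1 array of each strain and gives no test, the differences were 2.15 for Lyz2, 1.64 for Cd68, 0.80 for Csf1r, 2.33 for C1qa, 0.69 for C1qb, 1.09 for C1qc, 1.07 for Adgre1 and -0.016 for Mrc1; within slide 3 that of Cd14 was 3.53. Of 1031 alternative values of the 56 other named genes, 113 lost the call, 51 moved within a slide and 0 changed sign. No paired analysis was possible because the labels give the strains no shared replicate number; slide was used as a block instead, since 2 of the 3 slides hold both strains. Genes whose signal lies near background, such as Mrc1 and the second Adgre1 probe, are limited by signal.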

Other observations

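Of the neutrophil markers, S100a9 stood out on 1 array. Its levels were -1.42, -1.29 and -2.50 on NZO arrays, against 0.11, -4.03 and -3.55 on B6-ob/ob arrays, so B6-ob/ob replicate 4 held the highest value and the other 2 B6-ob/ob arrays the lowest. Lcn2, a gene of neutrophils and inflamed epithelium, had levels of -1.48, -1.12 and -2.88 on NZO arrays, against -2.25, -7.51 and -7.46 on B6-ob/ob arrays. Neither gene passed the test (limma adjusted p = 0.68 and 0.113). B6-ob/ob replicate 4 was also the array of its strain with the highest levels of Cd14, Mrc1, Ccl2 and the acinar markers, and with the lowest of Adgre1, Csf1r and Cd68. Both S100a9 and Lcn2 were singled out after their values were seen, and the source of their signal was not tested.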
